A study of Mus musculus with 2 samples.

Results

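The cells described here are hippocampal neurons defined by Neurod6 and by a set of genes that includes Chodl and Lypd6. They were picked from the counts themselves. A cell was a member when it carried at least 1 UMI (unique molecular identifier, 1 per captured transcript) of Neurod6 and at least 1 UMI each of 3 or more of Chodl, Lypd6, Rnf182, Tbata and S100a10. It could carry UMIs of at most 2 of Nwd2, Hs3st4, Cpne4, Nptx1 and Cyp26b1, and at most 2 UMIs of Gad1 and Gad2 together. Of 4996 kept cells, 474 met this rule, 205 in the control library and 269 in the Kdm6b KO library.

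Single cells were dissociated with papain from dentate gyri of mice at P2 (postnatal day 2) and profiled with the 10x Genomics 3′ assay, aiming at 2500 cells per condition. The source of the KO library was hGFAP-Cre;Kdm6bF/F mice, in which Cre is driven by the human GFAP promoter, active in radial glia, and removes the loxP-flanked part of Kdm6b from their descendants. The control library came from littermates labelled WT, with no further genotype given. Each library pooled 2 animals, so each genotype has 1 library. Differences between genotypes therefore could not be tested, and those below compare these 2 libraries. Intervals are 95% intervals and cover counting error only.

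Pyramidal neurons are the excitatory output neurons of the hippocampal fields CA1, CA2 and CA3, which lie around the dentate gyrus and come into a dissection of it. Neurod6 is a basic helix-loop-helix transcription factor of these excitatory neurons, related to Neurod1 and Neurod2, which drive their differentiation. Kdm6b is a demethylase that removes the repressive H3K27 methyl mark laid down by Polycomb complexes. Of the genes that define the cells, Chodl encodes a C-type lectin domain membrane protein, Lypd6 a GPI-anchored Ly6 protein that acts on nicotinic receptors and Wnt coreceptors, and S100a10 a partner of annexin A2. Rnf182 encodes a ubiquitin ligase, and Tbata a protein known from thymus and brain.

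Promoter sequence is shown for both naming genes and for a pair of genes, Slc17a6 and Neurod2, among the 12 furthest below in the KO library. Each line gives the 250 bases before a RefSeq start site (GRCm38.p6), written 5′ to 3′ on the gene's strand. Capitals mark CAGATG or its reverse complement CATCTG, and CAGCTG, E-box words of the kind that Neurod proteins are known to bind.
Chodl, chr16:78930698-78930947, plus strand: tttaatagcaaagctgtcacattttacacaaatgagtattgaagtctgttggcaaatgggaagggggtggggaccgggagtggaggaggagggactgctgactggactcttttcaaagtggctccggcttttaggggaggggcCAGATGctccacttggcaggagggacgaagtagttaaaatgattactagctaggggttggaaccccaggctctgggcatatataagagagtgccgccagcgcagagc
Lypd6, chr2:50066179-50066428, plus strand: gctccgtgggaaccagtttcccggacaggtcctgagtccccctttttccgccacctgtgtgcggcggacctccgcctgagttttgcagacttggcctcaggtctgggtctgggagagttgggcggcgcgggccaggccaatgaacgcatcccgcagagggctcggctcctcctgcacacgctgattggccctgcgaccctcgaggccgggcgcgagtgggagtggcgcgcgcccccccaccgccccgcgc
Slc17a6 upstream start, chr7:51621580-51621829, plus strand: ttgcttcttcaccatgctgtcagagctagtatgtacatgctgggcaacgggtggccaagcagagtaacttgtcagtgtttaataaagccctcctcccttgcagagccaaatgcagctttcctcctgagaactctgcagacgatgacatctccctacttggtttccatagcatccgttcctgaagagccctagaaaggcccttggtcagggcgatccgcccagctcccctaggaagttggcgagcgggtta
Slc17a6 downstream start, chr7:51624387-51624636, plus strand: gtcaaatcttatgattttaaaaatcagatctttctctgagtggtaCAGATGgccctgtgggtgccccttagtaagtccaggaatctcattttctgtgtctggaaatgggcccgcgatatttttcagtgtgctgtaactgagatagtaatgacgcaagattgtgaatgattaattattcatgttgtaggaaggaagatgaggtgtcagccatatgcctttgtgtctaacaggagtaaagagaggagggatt
Neurod2, chr11:98329646-98329895, minus strand: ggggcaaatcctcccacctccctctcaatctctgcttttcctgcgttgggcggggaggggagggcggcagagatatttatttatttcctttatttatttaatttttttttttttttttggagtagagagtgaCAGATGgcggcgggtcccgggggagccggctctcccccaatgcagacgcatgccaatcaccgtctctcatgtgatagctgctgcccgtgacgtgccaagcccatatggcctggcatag
The Chodl window held 1 such word, 107 bases before the start site, and the Lypd6 window held 0. The Neurod2 window held 1 at 118 bases before the start. Slc17a6 has 2 RefSeq starts, of which the downstream one had 1 word at 205 bases before it and the upstream one had 0. The windows of Neurod6, Rnf182, Tbata, Neurod1, Pcp4 and Necab2 held 0. Among 32851 promoters of the same length, 25.5% held at least 1 of these words, so a match is a description of the letters only.

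Depth differed between the libraries and bears on every share given here. Kept cells carried a median of 7394 UMIs in the control library (3029 cells) and 9411 in the KO library (1967 cells). The member cells were deeper, with medians of 12112 and 16454 UMIs and 3911 and 4493 genes, and their summed counts came to 2630767 and 4584537 UMIs. Sex differed as well. In the control library 70 member cells had Xist without Y-linked UMIs, 102 had Y-linked UMIs without Xist and 18 had both, while in the KO library 265 had Xist and 0 had Y-linked UMIs. Of the barcodes, 9 occurred in both libraries, 1 of them among the member cells of each. Some member cells also carried genes of other cell types: 28 control cells (13.7%) and 45 KO cells (16.7%) had at least 2 defining genes of 1 other type, in 24 and 42 of them those of astrocytes and radial glia. Their part in the results was not tested, and values without them are given where they differ.

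The genes of the rule were unequally spread over the member cells, as a description of the choice. Rnf182 was present in 100% of control and 98.9% of KO member cells, and S100a10 in 97.6% and 98.1%. Lypd6 was present in 80.5% and 81.4%, Chodl in 49.3% and 61.0%, and Tbata in 44.9% and 43.1%. Most cells thus entered through Rnf182 and S100a10 plus 1 or more of the 3 others. All 5 genes together were present in 29 control cells (14.1%) and 59 KO cells (21.9%). The most frequent set was Chodl, Lypd6, Rnf182 and S100a10, in 51 control cells and 67 KO cells, followed by Lypd6, Rnf182 and S100a10 without Chodl in 45 and 61. In endothelial cells, which are not neurons, Chodl had UMIs in 0.437% and 1.40% of cells, Lypd6 in 3.49% and 4.67%, and Rnf182 in 6.55% and 3.74%. Their medians were 23575 and 21515 UMIs per cell. S100a10 had UMIs in 17.9% and 9.81% of endothelial cells.

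In summed counts per 1000000 UMIs (CPM), the defining genes were at close levels in both libraries. Neurod6 stood at 1648 CPM in the control and 1614 in the KO member cells. Chodl stood at 70.7 (60.9 to 81.6) and 82.9 (74.8 to 91.6) CPM, with 186 and 380 UMIs, and Lypd6 at 113 and 107 CPM, with 298 and 492 UMIs. The intervals of the KO to control ratio held 1 for Neurod6, Chodl and Lypd6. Rnf182 was at 548 and 457 CPM, S100a10 at 553 and 460 and Tbata at 54.0 and 39.9, all lower in the KO library with ratios whose intervals ended below 1 (0.891, 0.890 and 0.927). Scaled to 10000 UMIs per cell, Rnf182 ran from 0.555 to 18.9 over control cells with a median of 5.57, and from 0 to 20.9 over KO cells with a median of 4.47. The ranges of the libraries overlapped for each of these genes.

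Of the genes the rule limits, Cpne4, a calcium-dependent membrane-binding protein of CA3, was common: it had UMIs in 76.1% and 79.9% of member cells and 201 and 197 CPM. Nwd2 had 6 and 25 UMIs, and Cyp26b1, which degrades retinoic acid, had 14 and 2. Cells just outside the rule were numerous. In the control library 413 cells had 3 or more of the defining genes but also 3 or more limited genes, and in the KO library 186 did, at medians of 21344 and 26756 UMIs. A further 164 and 118 cells had 2 defining genes. Sox4, a gene of immature neurons, stood at 347 CPM in control member cells with 4 defining genes, at 131 in the control cells past the limit and at 985 in those with 2 defining genes. Neurod6 stood at 1707, 1467 and 775 CPM in the same cells. Among control members Sox4 stood at 1190, 424 and 257 CPM in cells with 0, 1 and 2 limited genes, and at 581 in those with 3 defining genes. Cells with 2 defining genes thus lay within the range of these member classes for Sox4. For Neurod6 they lay below the lowest class, at 1420 CPM. Cells past the limit had less Sox4 than each of these classes and carried 3 or more of the defining genes, as members do.

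Genes the rule did not use bear on the label of pyramidal neurons. Zbtb20, a transcription factor of hippocampal excitatory neurons, was present in 100% of member cells of both libraries. Crym, a thyroid hormone-binding protein, had UMIs in 96.1% and 91.8%, Fezf2 in 50.2% and 65.1%, and the CA3 kainate receptor gene Grik4 in 47.8% and 53.2%. In endothelial cells Grik4 was present in 1.75% and 1.40%, Fezf2 in 0.873% and 1.87% and Crym in 20.1% and 6.07%, but Zbtb20 in 84.7% and 76.2%, so its presence does not tell these cells apart. Of the 15 genes of the CA1 list, which holds Crym, 7 were counted, and the list summed to 897 and 917 CPM. Compared with the other neurons defined below, 0 of the 7 were at least 1.5-fold higher in members in both libraries and 1 was lower. Wfs1 of this list had 12 and 28 UMIs, and Fibcd1 had 5 and 4. Of the 11 genes of the CA2 list, 7 were counted, and the list summed to 400 and 828 CPM. In the same comparison 3 of these 7 were higher in members and 1 was lower, beside 1.78% and 3% of all genes. Pcp4 and Amigo2 of this list are described below, while its marker Rgs14 had 1 and 2 UMIs. Of the CA3 list, which holds Grik4, 11 genes were counted, and 0 were higher in members and 4 lower. Hs3st4 and Nptx1, which the rule limits, are among these 4. Of 9 counted genes of the subiculum and entorhinal list, 1 was higher and 0 were lower. Prox1, the factor of dentate granule neurons, had UMIs in 4.88% and 4.46% of member cells. Across these lists the field markers thus did not share a direction, though the changed CA3 genes were all lower in members. No single field is named by them at this age. Slc17a7, the vesicular glutamate transporter of mature pyramidal neurons, was present in 38.0% and 36.8%, and in 2.62% and 2.34% of endothelial cells.

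**Figure D1:**
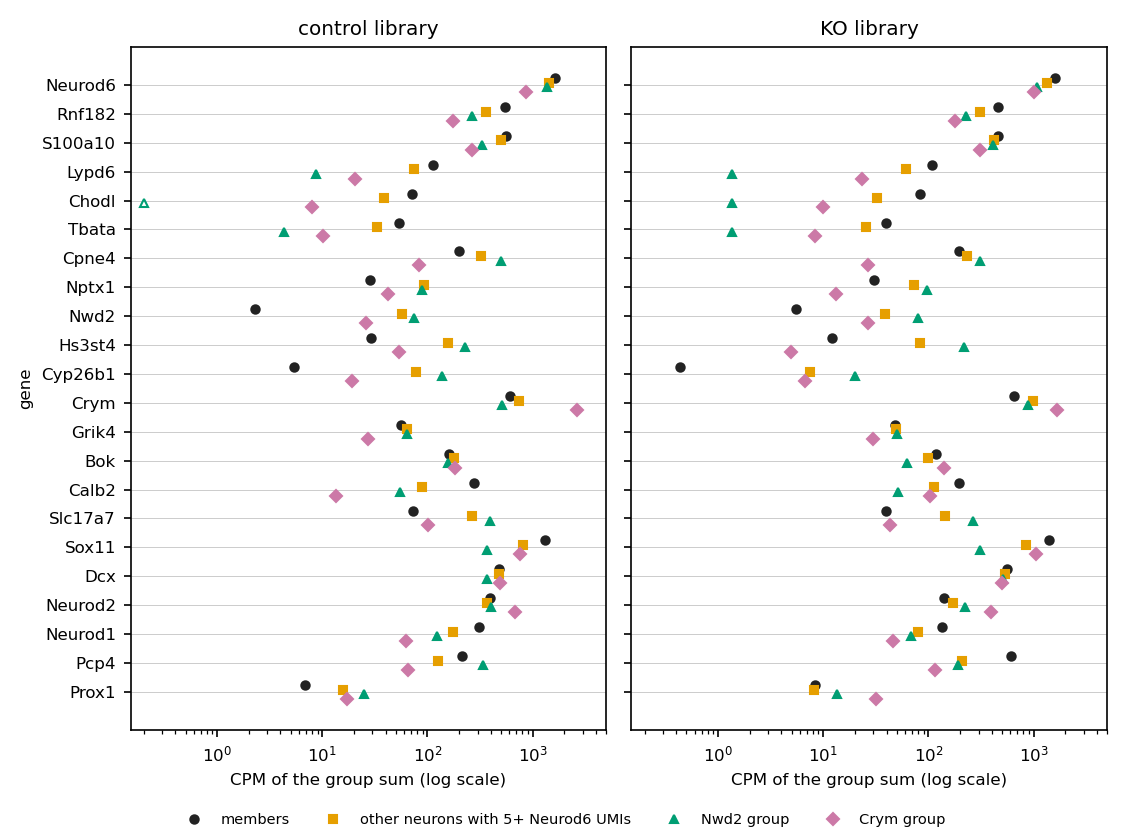
Levels of 22 genes in 4 groups of Neurod6 cells, control library left and KO library right. The x axis is CPM of the group's summed UMIs on a log scale, each point is 1 group sum with no replicate, and the open marker at the left edge is a count of 0. Members are the highest group for Lypd6, Chodl and Tbata, which the rule chose, and the highest for Sox11 and Calb2, which it did not use.

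Compared with other neurons, the member cells carried more transcripts of genes of young neurons and fewer of genes of synaptic maturity. The comparison cells were 673 control and 363 KO cells with at least 5 Neurod6 UMIs and at most 2 Gad1 and Gad2 UMIs that were not members. Because members were chosen on the same counts, this is a description. Of the 14 neuroblast markers, 9 had at least 50 UMIs in members, and 5 of these were at least 1.5-fold higher in members in both libraries: Igfbpl1, Sema3c, Sox11, Neurod1 and Nhlh2. Over all 9191 genes counted, 1.78% were that much higher in both. Sox11, a factor of newborn neurons, was at 1313 CPM in control members against 814 in the other neurons, and at 1405 against 852 in the KO library. Sema3c, a secreted guidance molecule, was at 268 against 105 and at 289 against 167. Dcx, a microtubule protein of migrating neurons, was at 480 against 475 and at 562 against 541, so not all genes of young neurons stood out.

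Release genes stood the other way, with 5 of 27 presynaptic genes at least 1.5-fold lower in members in both libraries and 0 higher, beside 3% lower over all genes. Slc17a7 was at 72.6 CPM in control members against 263 in the other neurons, and at 39.3 against 145 in the KO library. The synaptic vesicle genes Syp and Sv2b differed alike, with log2 values of -1.41 and -1.16 for Syp and -1.89 and -1.86 for Sv2b. Syt1, the calcium sensor of release, was at -0.62 in both. Of 18 counted calcium-binding genes, 6 were at least 1.5-fold lower in members in both libraries and 3 higher. The calcium sensors Hpca (-1.12 and -0.89) and Vsnl1 (-1.19 and -1.19) were lower. Pcp4 (0.77 and 1.58) and Necab1 (1.18 and 0.78) were higher. Among guidance genes, 10 of 40 were lower in members in both libraries, including the Slit receptors Robo1 (-0.83 and -0.61) and Robo2 (-0.83 and -0.79), and 3 were higher. The other neurons were also deeper, with medians of 17057 and 20175 UMIs, and they hold cells that the limit of the rule kept out. Slc17a7 stood at 20.6, 32.8 and 107 CPM in control members with 0, 1 and 2 limited genes. In control cells past the limit it stood at 283 CPM. Cells with 2 defining genes, which are not members, had 32.8 and 35.5 CPM, so low Slc17a7 was not particular to members. The parts of depth and of the limit were not tested.

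Among single genes, the 20 highest in members were ranked against all other cells with at least 1 Neurod6 UMI. In that comparison 0.87% of genes were at least 1.5-fold higher in both libraries. The 20 were also higher against the neurons with at least 5 Neurod6 UMIs, 19 of them by at least 1.5-fold in both libraries. This is no separate check, because those neurons are part of the cells used for the ranking. They gave 12068086 of its 16422792 control UMIs and 7583754 of its 9349235 KO UMIs. Ephb1, an ephrin receptor, was at 101 CPM in control members against 47.9 in those neurons, and at 80.3 against 36.8 in the KO library. Gfra2, the neurturin coreceptor, was at 76.4 against 34.4 and at 60.4 against 32.6. Rnd2, a small GTPase of migrating neurons, was at 276 against 136 and at 312 against 186. Cldn3, a claudin, was at 27.7 against 9.36 and at 14.4 against 6.33. The list also held Amigo2, an adhesion gene known from CA2 (11.4 against 5.97 and 8.94 against 4.48), and Lypd6b, a Ly6 gene related to Lypd6 (35.7 against 24.7 and 35.6 against 16.3). Ppp2r1b, Ptx3, Tmem132c, Insm1, Clrn1 and Rxrg were further members of it. In both libraries 4.7% of genes were at least 1.5-fold lower against all other Neurod6 cells. The 10 lowest, such as Apoe and Rgs5, are genes of glia and vessels. They turned to the other side in at least 1 library against the stricter neurons. Cells with a single Neurod6 UMI include other cell types. Among genes with at least 50 UMIs in members that the rule did not use, Dgkg, a diacylglycerol kinase, was the lowest against those neurons by the library where it differed less, at 7.22 against 44.4 CPM and 7.85 against 46.5.

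Calb2, which encodes calretinin and is known from mossy cells and Cajal-Retzius cells, was at 277 CPM in control members against 89.3 in the other neurons, and at 196 against 112 in the KO library. Within the control members Calb2 differed with the number of limited genes. It stood at 789 CPM in the 38 control cells with 0 limited genes, 347 in the 73 with 1 and 131 in the 94 with 2. In the KO library the values were 221, 196 and 191. Of the 6 counted genes of the mossy cell list, Calb2 was the 1 that was at least 1.5-fold higher in members in both libraries, and Ajap1, chosen after its values were seen, was the 1 that was lower. The list's median log2 difference from the other neurons was -0.15 for control cells and -0.41 for KO cells.

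Presence of Chodl split the members into 101 and 104 control cells and 164 and 105 KO cells with and without it. Cells with Chodl were deeper, at medians of 13994 against 10778.5 UMIs in the control library and 17367.5 against 13391 in the KO library. Of 9191 genes, 44 (0.479%) were at least 1.5-fold higher in cells with Chodl in both libraries and 137 (1.49%) lower. Among the higher genes were Plcxd3 (log2 0.98 and 1.01) and Pdlim1 (1.02 and 0.93). Prox1 was lower, with 2 against 16 UMIs and 8 against 30, as was St18 with 1 against 24 and 1 against 35. Genes of motile cilia were lower too: Foxj1 (4 against 35 and 9 against 19), Dynlrb2 (2 against 24 and 8 against 17) and Rsph1 (1 against 35 and 10 against 15). So was Mpped1 of the CA1 list (7 against 25 and 15 against 51). Ependymal genes were not among the markers of other cell types that were summed. The UMIs of St18 lay in few cells, 1.95% and 3.35% of members.

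Member cells made up a larger part of the KO library. They were 6.77% of kept control cells (5.90 to 7.72%) and 13.7% of kept KO cells (12.2 to 15.3%), a ratio of 2.02 (1.68 to 2.44). Among cells with Neurod6 UMIs they were 205 of 1531 (13.4%) and 269 of 853 (31.5%), a ratio of 2.36. Among cells with at least 4000 UMIs the shares were 8.80% and 16.6%, a ratio of 1.88 (1.56 to 2.27). With the same cells thinned to 4000 UMIs and the rule applied again, they were 10.9% and 11.8%, a ratio of 1.08 (0.892 to 1.32). Over 10 further random draws the ratio ran from 1.02 to 1.27 with a median of 1.12. Thinned to 2000 UMIs the ratio was 1.24 (0.896 to 1.70) and to 8000 UMIs 1.44 (1.20 to 1.72), against 2.03 and 1.77 in the same cells with all their UMIs. Thinning left out 767 control and 390 KO cells at 4000 UMIs, and 1608 and 890 at 8000. Without the limit on Nwd2, Hs3st4, Cpne4, Nptx1 and Cyp26b1 the log2 ratio was 0.18, against 1.01 with it. The limit kept out the 413 control and 186 KO cells given above. For all kept cells the ratio interval held 1 at 2000 and 4000 UMIs, and a larger part of the KO library was not detectable at those depths.

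**Figure D2:**
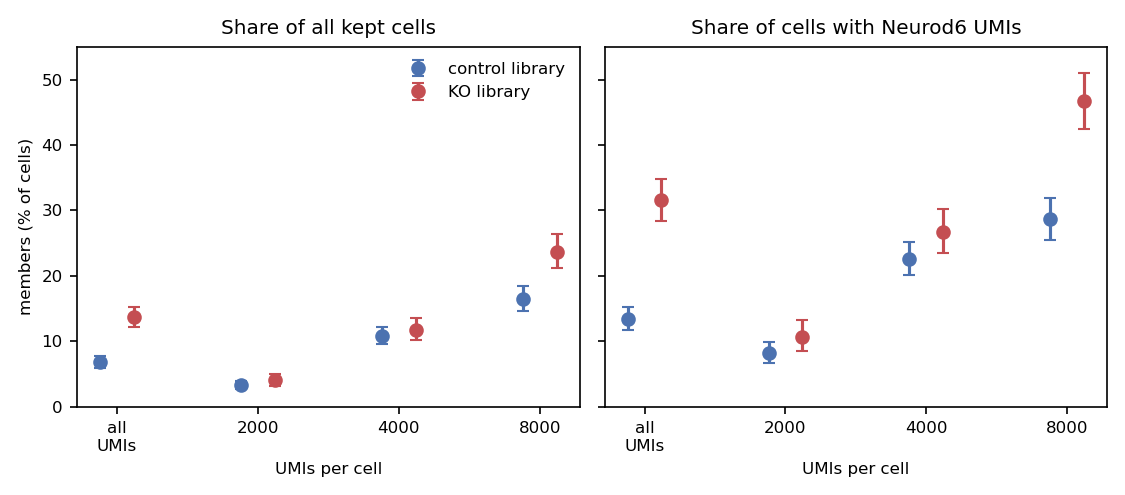
Share of cells that met the rule, as a percent of all kept cells (left) and of cells with Neurod6 UMIs (right), with all UMIs and after thinning every cell to 2000, 4000 or 8000 UMIs. Points are single libraries and bars are 95% Clopper-Pearson intervals. The libraries stand apart with all UMIs and at 8000, and their bars overlap at 2000 and 4000.

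Kdm6b itself had 121 UMIs in control and 181 in KO member cells, or 46.0 and 39.5 CPM (ratio interval 0.678 to 1.09). Which exons are flanked was not known here, and UMIs from the 3′ end can miss a deletion elsewhere in the gene, so these counts check no label. Its paralog Kdm6a was at 13.7 and 16.1 CPM. Ezh2, the H3K27 methyltransferase of Polycomb complexes, was at 44.1 and 58.0 CPM (ratio interval 1.05 to 1.65). Of 26 counted genes of Polycomb and H3K27 enzymes, 1 was at least 1.5-fold higher in the KO library and 1 lower. Over all genes counted in members, 4.8% were higher and 5.03% lower, so the list was near these shares. Its median log2 ratio was 0.02.

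Between the libraries most genes of the member cells were at like levels. Of 9191 genes with at least 50 UMIs over both, 441 (4.8%) were at least 1.5-fold higher in the KO library and 462 (5.03%) lower, with a median log2 ratio of -0.04. In the other neurons these shares were 3.76% and 5.51% of 11224 genes. The shares in members are the background for every count of listed genes below. The counts were 238 and 277 with cells thinned to 4000 UMIs, and 337 and 1100 where 2 defining genes sufficed. Counts and ratios with thinned cells, here and below, come from the 246 control and 186 KO cells that met the rule after thinning. They are thus not the same cells. Shares of members with a UMI at 4000 UMIs per cell are instead of 199 control and 261 KO original members. Of 67 named genes past 1.5-fold in members, Xist left out, 46 stayed past it on the same side with cells thinned to 4000 UMIs, 49 without the limit of the rule and 57 among Xist cells that lacked Y-linked UMIs. The 12 genes furthest above and 12 furthest below in KO members, ranked by how far the nearer end of the ratio interval lay from 1, are each named below.

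**Figure D3:**
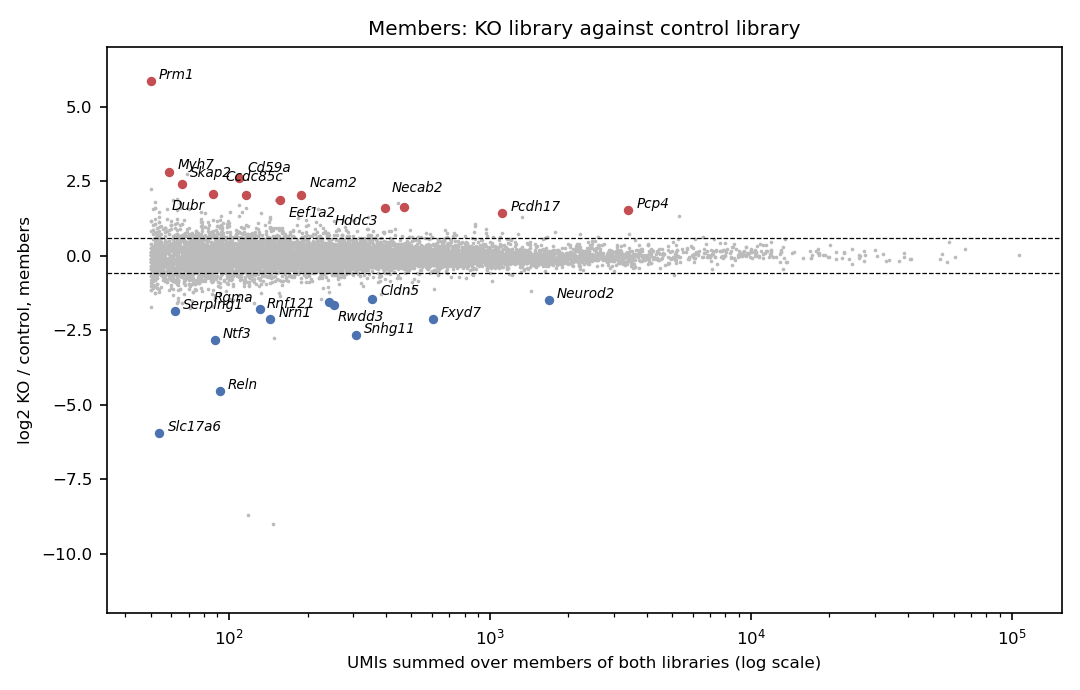
Log2 ratio of KO to control against the summed UMIs (log scale) of each gene in member cells, for the 9191 genes counted, with dashed lines at 1.5-fold. Coloured points are the 12 genes furthest above and 12 furthest below. Prm1, with 0 control UMIs, is drawn at a ratio that depends on the 0.5 UMI added, and the lowest grey points are Y-linked genes.

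The proneural factors stood lower in the KO library. Neurod2 had 1039 UMIs in control members and 643 in KO members, which is 395 CPM (371 to 420) against 140 CPM (130 to 152). The log2 ratio was -1.49. At 4000 UMIs per cell, 77.4% of control and 30.7% of KO member cells had a Neurod2 UMI. Endothelial cells, not thinned, had one in 3.93% and 3.74%. Scaled per cell to 10000 UMIs the median was 3.82 in control cells and 0.46 in KO cells, and the ranges overlapped, from 0 to 17.7 and from 0 to 10.9. The difference was present in every class of the rule: 449 and 248 CPM in cells with 3 defining genes, 375 and 107 with 4, and 335 and 68.3 with 5. Neurod1 was at 308 and 136 CPM (-1.18) and had UMIs in 88.8% and 66.2% of cells. Neurod6, which the rule required in each member, showed no such difference (-0.03). The other neurons had -1.09 for Neurod2 and -1.13 for Neurod1.

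Of 31 counted identity genes of pyramidal neurons, 3 were at least 1.5-fold lower in the KO library and 5 higher, with a median log2 ratio of 0.07. The lower ones were Neurod1, Neurod2 and Tbr1, a T-box factor of glutamatergic neurons (27.4 and 17.0 CPM). With cells thinned to 4000 UMIs, Tbr1 had 18 and 14 UMIs and a log2 ratio of 0.052. The higher ones were Foxp1 (0.62), Etv1 (0.95), Lhx2 (0.59), and the LIM-only cofactors Lmo3 (0.72) and Lmo4 (0.73). Lmo4 had 329 and 953 UMIs and Lhx2 448 and 1178. In the other neurons Lmo3, Lmo4, Foxp1, Etv1 and Lhx2 were also higher in the KO library, at 0.89, 0.64, 0.99, 1.09 and 0.59.

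Slc17a6, which encodes the vesicular glutamate transporter VGLUT2 of young and subcortical excitatory neurons, had 53 UMIs in control members and 1 in KO members, or 20.1 and 0.218 CPM (ratio interval 0.000269 to 0.063). Control UMIs of Slc17a6 lay in 36 of 205 cells, so most cells of both libraries had 0. Of the 53, 46 UMIs lay outside 2 control cells that carried all 4 of the Cajal-Retzius genes Trp73, Lhx1, Lhx5 and Ndnf. Among members without those 2 cells Slc17a6 stood at 17.8 and 0.218 CPM. Slc17a7, the transporter VGLUT1, was at 72.6 and 39.3 CPM (-0.89). Slc17a6 in the other neurons was at 14.3 and 0.791 CPM. Both transporter genes were thus lower in the KO library in members and in the other neurons.

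Reln, the extracellular signal of Cajal-Retzius cells, was among the 12 lowest genes through those cells: 81 of its 86 control UMIs lay in the 2 of them, and elsewhere it had 5 control and 6 KO UMIs. Cldn5, an endothelial claudin, likewise had 156 of its 216 control UMIs and 93 of its 138 KO UMIs in 1 cell each. Without members that carried 2 or more defining genes of another type, its log2 ratio was -0.39 against -1.45. Of the 12 lowest genes 11 were past 1.5-fold without those members, Reln among them on few UMIs, and of the 12 highest all 12 were.

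The remaining low genes were Snhg11, Ntf3, Fxyd7, Nrn1, Rwdd3, Rgma, Rnf121 and Serping1. Ntf3, the neurotrophin NT-3, had 71 and 17 UMIs (-2.83). Snhg11, a long noncoding RNA of neurons, had 240 and 66 UMIs (-2.66), and Fxyd7, a regulator of the sodium pump, had 432 and 171 (-2.14). Nrn1, which encodes the neurite growth protein neuritin, was at 39.2 and 8.94 CPM (-2.12), and Rgma, a repulsive guidance molecule, at 33.1 and 9.60 CPM (-1.78). These genes were lower in the KO library in the other neurons too, at -2.71 for Ntf3, -2.47 for Snhg11, -2.08 for Fxyd7, -1.77 for Nrn1 and -0.73 for Rgma. Snhg11 and Fxyd7 are also genes that members carried at lower levels than the other neurons, at 91.2 against 285 CPM and 164 against 756 CPM in the control library.

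Genes higher in the KO library included some of calcium binding and cell adhesion. Pcp4, a calmodulin-binding protein known from CA2, had 562 and 2829 UMIs, which is 214 CPM (196 to 232) against 617 CPM (595 to 640). The log2 ratio was 1.53. Pcp4 had UMIs in 69.3% and 85.9% of members, and in 46.7% and 70.9% at 4000 UMIs per cell, against 8.30% and 6.54% of endothelial cells. Scaled per cell to 10000 UMIs the median was 1.28 in control and 6.03 in KO members, over ranges from 0 to 21.8 and from 0 to 25.7. Necab2, a neuronal calcium-binding protein, had 73 and 397 UMIs, or 27.7 and 86.6 CPM (1.63). Without the limit on Nwd2, Hs3st4, Cpne4, Nptx1 and Cyp26b1, the log2 ratio of Necab2 was 0.53. In the other neurons the log2 ratios were 0.73 for Pcp4 and 0.53 for Necab2, with ratio intervals of 1.54 to 1.78 and 1.34 to 1.56. In members these intervals were 2.64 to 3.17 and 2.43 to 4.06. In the 58 control and 34 KO cells with 3 or more limited and at most 2 defining genes, Pcp4 went the other way, at 335 and 193 CPM (-0.80, ratio interval 0.468 to 0.703). Necab2 stood at 256 and 276 CPM in them, with an interval that held 1. A further 77 control and 37 KO cells had UMIs of Pou3f1 and Crym and were in neither of these groups. There Pcp4 was higher in the KO library, at 65.9 and 115 CPM (0.80, ratio interval 1.21 to 2.51). Necab2 was at 34.1 and 21.6 CPM in them, with an interval that held 1. The difference between members and other neurons in these ratios was not tested.

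Of 18 counted calcium-binding genes, 4 were at least 1.5-fold higher in the KO library and 0 lower: Pcp4, Necab2, Necab1 (27 and 102 UMIs) and Rcn1 (10 and 55). The list's median log2 ratio was 0.18. The CA2 list held Pcp4 and Necab2 as higher and Ntf3 as lower among 7 counted genes, with a median of -0.15, so its genes did not share a direction. Amigo2, of the same list, was at 11.4 and 8.94 CPM with a ratio interval that held 1. The CA1 and CA3 lists had 0 higher genes of 7 and of 11, and 1 lower gene each, with medians of -0.15 and -0.24.

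Pcdh17, a protocadherin of synapses, was the best counted adhesion gene among the highest, with 197 and 918 UMIs, or 74.9 and 200 CPM (1.42). At 4000 UMIs per cell, 21.6% of control and 53.6% of KO members had a Pcdh17 UMI, a gene that endothelial cells also carry (36.7% and 49.1%). Pcdh19, a protocadherin of neuronal sorting, was at 86.7 and 161 CPM (0.89). These were the 2 of 18 counted cadherins past 1.5-fold, and 0 were lower. Ncam2, a neural cell adhesion molecule, had 23 and 166 UMIs (2.02). Pcdh17 and Pcdh19 were also higher in the other neurons, at 1.69 and 0.93.

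The other genes of the highest 12 were Prm1, Cd59a, Myh7, Skap2, Ccdc85c, Eef1a2, Hddc3 and Dubr. Prm1, a protamine gene known from sperm, had 0 UMIs in control members and 50 in KO members, at least 9.56-fold higher against a floor of 3 UMIs. Prm1 also had UMIs in 0% of control and 9.35% of KO endothelial cells, which lie outside the neuronal lineage. Eef1a2, the elongation factor of mature neurons and muscle, had 21 and 136 UMIs (1.87), and Cd59a, an inhibitor of complement, had 9 and 100 (2.60). Myh7, a myosin heavy chain of heart and slow muscle, had 4 and 55.

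**Figure D4:**
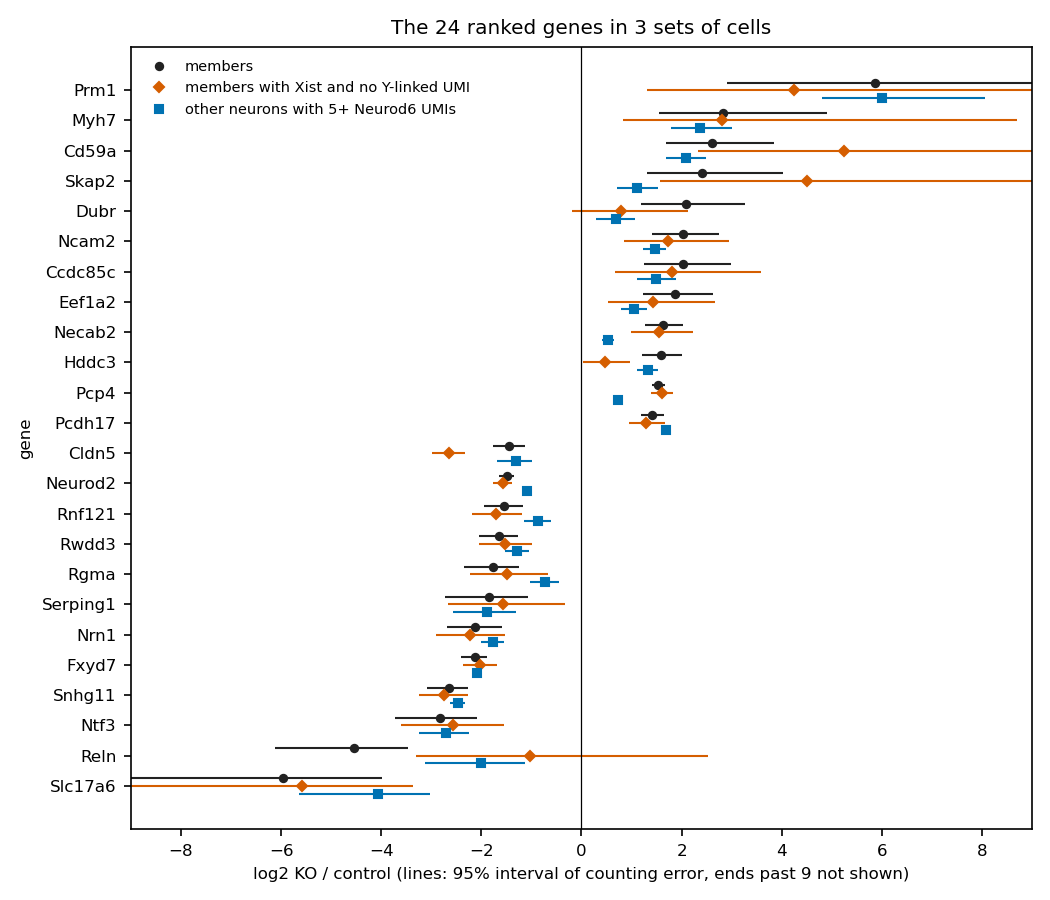
Log2 ratio of KO to control for the 12 genes furthest above and 12 furthest below, in all members, in members with Xist and no Y-linked UMI, and in other neurons with at least 5 Neurod6 UMIs. Lines are 95% intervals of counting error. For 23 of the 24 genes the Xist-only value lies past 1.5-fold on the same side, Reln on 2 control UMIs, and the exception is Hddc3. The Xist-only value of Cldn5 rests on 163 control UMIs, 156 of them in 1 cell.

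Sex was compared within the control library, where both sexes were present. Hddc3, a nucleotide hydrolase gene, stood at 52.2 CPM in control members with Xist and at 5.93 in those with Y-linked UMIs, against 72.9 in the KO members with Xist. Its log2 ratio among cells with Xist was 0.47, against 1.59 over all members. Dubr, a long noncoding RNA, was at 9.28 and 1.48 CPM in control members with Xist and with Y-linked UMIs. For Neurod2 the control values were 419 and 390 CPM, against 141 in the KO members, and for Neurod1 they were 295 and 310 against 136. Pcp4 was at 203 and 208 against 619, and Necab2 at 29.0 and 24.5 against 86.3. Slc17a6 was at 15.1 and 17.8 against 0.219. The values of these 5 genes in both control classes thus lay on the same side of the KO value. Of the 24 ranked genes, 4 had an interval of the ratio between the control classes that excluded 1: Hddc3, Dubr, Snhg11 and Cldn5. Cldn5 had 163 UMIs in control members with Xist and 18 in those with Y-linked UMIs. Of the 163, 156 lay in 1 cell, so its value does not describe a difference between the sexes. With 2 pooled animals a library, animal and genotype cannot be told apart.

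Genes of receptors and channels are given as counts past 1.5-fold, beside 4.8% of all genes higher and 5.03% lower in the KO library. Of 14 counted glutamate receptor genes, 2 were higher in the KO library and 0 lower. Grin2b, the NMDA receptor subunit of young synapses, was at 338 and 554 CPM (0.71), and Gria4 had 10 and 40 UMIs, while the AMPA receptor subunit Gria2 was at 414 and 430 CPM. Of 12 counted genes for GABA receptors and chloride transport, 0 were past 1.5-fold, with a median of 0.08. Of 12 nicotinic and Ly6 genes, 0 were higher and 3 lower: Ly6e (98.8 and 53.0 CPM), Lynx1 (36 and 29 UMIs) and Lypd1 (26 and 29 UMIs). Without the limit of the rule Lypd1 turned to 0.35. Ly6h, the most abundant Ly6 gene of these cells, was at 1094 and 1114 CPM. The list holds Lypd6, which the rule used.

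Of 21 counted sodium and calcium channel genes, 3 were higher in the KO library, among them Cacna2d3 at 0.67 and Cacnb2 at 0.83, and 1 was lower. The lower one was Cacna2d1, the gabapentin-binding subunit, at 105 and 45.4 CPM (-1.21). Of 27 potassium and HCN channel genes, Kcnd2 (0.70) and Hcn2 (0.73) were higher and Kcna1 (-0.71) and Kcnip3 (-1.23) lower. Kcnd2, an A-type channel, had 90 and 255 UMIs, while Hcn2 had 19 and 56. Hcn2 turned to -0.15 with cells thinned to 4000 UMIs, and Kcnip3 to 0.19 without the limit of the rule. The medians of these lists were 0.06 and -0.09.

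Synaptic genes are counted in the same way. Of 27 presynaptic genes, Syt4, a synaptotagmin of dense-core vesicles, was the 1 higher gene (669 and 1044 CPM, 0.64), and Slc17a6 and Slc17a7 were the 2 lower ones. Of 32 postsynaptic and adhesion genes, 5 were higher (Dlg4, Shank2, Lrrtm2, Tenm3 and Tenm4) and 1 lower (Igsf21), with a median of 0.28. Shank2 and Tenm3 turned to -0.20 and -0.51 with cells thinned to 4000 UMIs, on 17 and 11 and on 8 and 4 UMIs. Dlg4, which encodes the scaffold PSD-95, was at 51.3 and 80.1 CPM (0.64), and Tenm4, a teneurin, at 45.2 and 82.2 CPM (0.86). The same genes had a median of 0.11 in the other neurons. Of 40 axon guidance genes, Unc5d (22 and 72 UMIs) was higher and the ephrin receptor gene Epha7 (129 and 59.8 CPM, -1.11) lower, with a median of 0.02.

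Of 33 genes of the neuronal cytoskeleton and of maturation, 1 was higher and 2 lower. Rbfox3, which encodes the neuronal marker NeuN, was at 151 and 89.4 CPM (-0.76), the RNA-binding protein gene Elavl4 at 38.8 and 20.9 (-0.89) and the neurofilament gene Nefm at 113 and 173 (0.61). In Xist cells that lacked Y-linked UMIs, Elavl4 had 17 and 96 UMIs and a log2 ratio of 0.058. Stmn2, among the most abundant transcripts of these cells, was at 5925 and 5518 CPM. Of 9 neuroblast genes, 0 were higher and 2 lower, Neurod1 and Nhlh2 (49.8 and 23.8 CPM). Among 18 neuropeptides and growth factors, Igf1r, Fgf14 and Pcsk2 were higher, and Ntf3 and Nts lower. The 45 and 27 UMIs of Nts lay in 1.95% and 1.49% of cells. Nts turned to 3.38 among cells with Xist and Pcsk2 to -0.080 without the limit of the rule. Genes of the respiratory chain were level, with 0 of 40 past 1.5-fold and a median of 0.01. Of 22 genes of cholesterol synthesis, 1 was higher and 0 lower, with a median of -0.20.

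**Figure D5:**
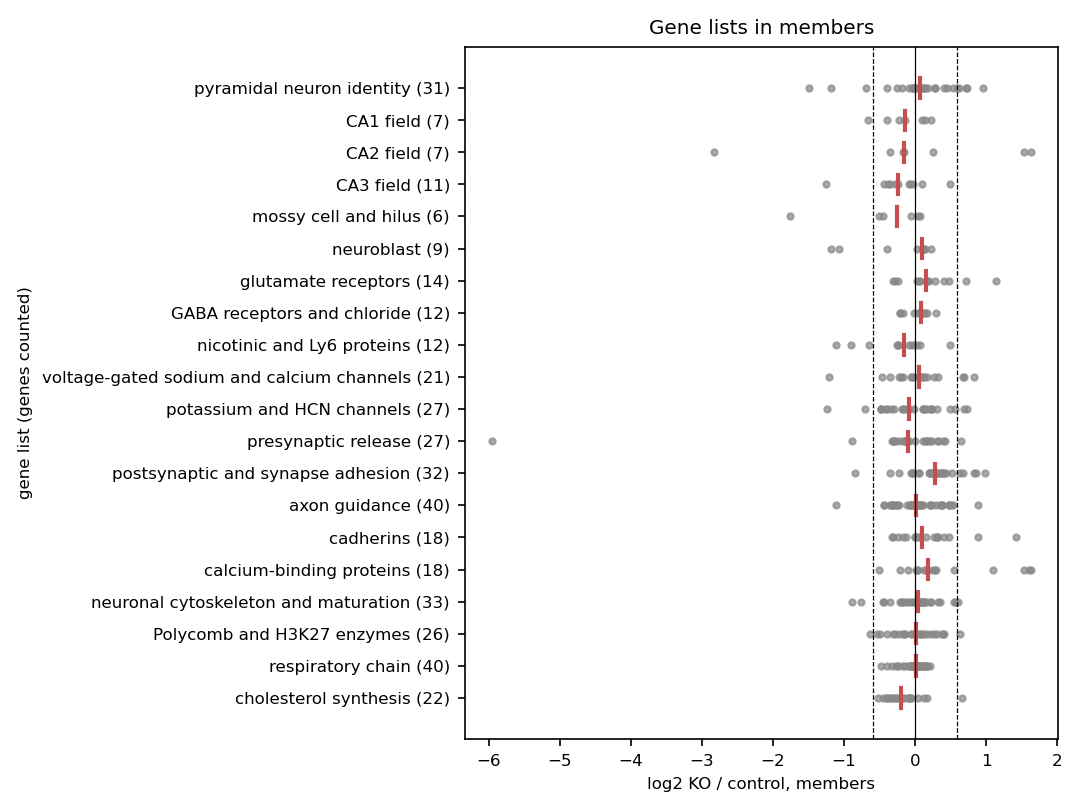
Log2 ratio of KO to control in member cells for the counted genes of 20 lists (x axis), 1 grey point per gene and a red bar at each list's median, with dashed lines at 1.5-fold. List medians lie between -0.25 and 0.28, and single genes such as Slc17a6, Ntf3, Pcp4 and Necab2 stand apart from their lists.

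Markers of other cell types were summed to show what moved with these results. The 5 defining genes of astrocytes and radial glia came to 126 and 139 CPM in control and KO members, with 0 of them at 0 UMIs. The 5 of endothelial cells came to 100 and 52.6 CPM, or 16.2 and 13.2 without the cells that carried 2 or more of them. The 5 of Cajal-Retzius cells came to 48.3 and 3.27 CPM, or 3.86 and 2.63 without such cells, and 6 GABAergic genes came to 2.28 and 4.58 CPM. Microglia genes came to 1.52 and 1.09 CPM. The 5 fibroblast genes came to 2.28 and 21.2 CPM, with 91 of their 97 KO UMIs in 1 cell, and to 2.28 and 1.33 without it. The 4 of the oligodendrocyte lineage came to 7.98 and 5.89 CPM, or 2.67 and 0.219 without the 1 cell of each library that carried 2 or more of them. Neurod2, Neurod1, Slc17a6, Pcp4, Necab2 and Pcdh17 kept their side past 1.5-fold without all 28 control and 45 KO cells of this kind.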

How the data were processed

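Droplet 3′ RNA libraries of dissociated P2 dentate gyrus were read as the deposited UMI counts per gene and barcode, whole numbers that are not normalized. The submitters' processing notes name Cell Ranger 3.0.2, Seurat 3 and mm10, without their roles. Barcodes needed 500 genes, 1000 UMIs and a mitochondrial share of 10% or less to be kept, 3029 of 3555 and 1967 of 2292. No doublets were removed: Scrublet (scanpy 1.11.5) marked 0.197% and 0.524% of barcodes, too few to have worked in the control library. UMIs were summed over cells, scaled per 1000000 (CPM), and compared as log2 ratios with 0.5 UMI added. Intervals were exact Poisson for sums, exact conditional binomial for ratios and Clopper-Pearson for shares (Python 3.11.15, scipy 1.17.1). A gene was counted at 50 UMIs over both libraries and as different past 1.5-fold. The ratios and their intervals were tested on simulated Poisson counts. That simulation held no variation between cells or animals, so it does not cover such variation.

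Members, gene lists and named genes were chosen with earlier results of these data known. Named genes were those of the rule, Kdm6b, Kdm6a, Ezh2, Prm1, Xist and Gfap, the 12 furthest above and below in KO members, the 20 highest and 10 lowest in members, and up to 6 of each list. The ranking left out sex-linked, haemoglobin, ribosomal protein and mitochondrial genes and predicted models. Genes named outside this rule, chosen after their values were seen, include Wfs1, Fibcd1, Rgs14, Grik4, Fezf2, Foxp1, Lmo3, Etv1, Lhx2, Tbr1, Sox4, Elavl4, Nefm, Lypd1, Shank2, Lrrtm2, Tenm3, Cacnb2, Hcn2, Igf1r, Pcsk2, Unc5d, Robo1, Robo2, Hpca, Vsnl1, Syp, Syt1, Dgkg, Sv2b and Ajap1. Xist stood at 379 and 944 CPM and Gfap at 7.98 and 4.80 CPM in control and KO members. Some single genes are not reported here. Alternatives changed filters, the rule, depth, sex, scaling (TMM from edgeR 4.0.16) and minimum counts.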

Additional observations from a re-analysis of the deposited data

How the results depend on the processing

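No paired analysis was possible because each genotype has 1 library. The log2 ratio of the member share over all kept cells was 1.01 as reported and 1.24 over cells with Neurod6 UMIs. These became 0.69 and 0.91 with at least 2 of 5 required genes, 0.18 and 0.40 with no limit on the limited genes, 0.12 and 0.24 when thinned to 4000 UMIs, 0.31 and 0.39 at 2000 and 0.52 and 0.71 at 8000. In cells with Xist and no Y-linked UMIs they were 1.45 and 1.59, and with 5 or more Neurod6 UMIs in the denominator the second was 0.87. Cells with at least 2000, 4000 or 8000 UMIs, not thinned, gave 1.02, 0.91 and 0.82 over all kept cells. Those cells, the 2000 and 8000 depths and that denominator were chosen after seeing the data. The 441 higher and 462 lower genes became 238 and 277 when thinned to 4000 UMIs, 756 and 877 at a minimum of 20 UMIs and 118 and 86 at 200, while at least 2 of 5 required genes gave 1100 lower genes. Fewer or more genes are counted in these settings by construction, and otherwise the cause was not tested. For members over other Neurod6 cells, the 80 higher and 432 lower genes became 743 and 1867 with no limit, 49 and 86 at 200 UMIs, and 164 and 276 against neurons with 5 or more Neurod6 UMIs. Higher genes were 121 by per-cell means and 153 with TMM. Lower genes were 187 with at most 1 limited gene, 54 when thinned and 911 at 20 UMIs. Some named genes changed sign: with at most 1 limited gene Hs3st4 (0.16) and Clrn1 (-0.068), with no limit Kcnip3 (0.19), Pcsk2 (-0.080) and Lypd1 (0.35), thinned to 4000 UMIs Shank2 (-0.20), Tbr1 (0.052), Tenm3 (-0.51) and Hcn2 (-0.15), among cells with Xist Elavl4 (0.058), Nts (3.38) and Xist itself (-0.091), and without the 10% of members with most UMIs Nts (0.41). Genes with few UMIs are limited by counting error, and 1 library per genotype limits every difference.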
